A study of Mus musculus with 6 samples.

Results

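The genes of GABA and glycine transmission were described as 33 genes named in a fixed list and found by their symbol in the deposited count table, each with a single gene ID, out of 54532 genes in all. They comprise 10 genes of transmitter synthesis, breakdown and transport, 1 anchoring gene and 22 receptor subunit genes. RNA had been sequenced from retina at postnatal day 17, in 3 OIR libraries and 3 normal libraries, all from C57BL/6J mice labelled wild type. OIR usually stands for oxygen-induced retinopathy. In this model young mice breathe high oxygen and are then moved to room air, which leaves the retina short of oxygen and leads to new, misplaced vessels. The labels name no transgene or drug, and they state neither the oxygen schedule nor whether animals were pooled. The study looked for a target tied to the growth of retinal vessels under hypoxia.

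GABA and glycine are the inhibitory transmitters of the retina and are used mainly by amacrine cells, while GABA is also made by horizontal cells. GABA is made from glutamate by the glutamate decarboxylases, packed into vesicles by a transporter that also carries glycine, removed from the cleft by transporters of neurons and Müller glia, and broken down by GABA transaminase. GABA-A receptors, their retina-rich rho subtype and glycine receptors are chloride channels of 5 subunits, so their effect depends on the chloride that cation-chloride cotransporters keep in the cell. GABA-B receptors act through G proteins.

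Depth was 15818168 to 17163513 counts per library. The retina markers were present in all libraries, with rod genes summing to 34983 to 39129 CPM (counts per 1e6 counts, scaled between libraries by TMM) in OIR libraries and to 43008 to 46228 CPM in normal libraries. One library stood apart in lens transcripts. The 5 lens crystallin genes summed to 5415 CPM in OIR 3 and to 73.8 and 333 CPM in the other OIR libraries. Their sums in the normal libraries were 4.1 to 336 CPM. The normal libraries also differed among themselves in tissue content. Ganglion cell markers summed to 1628, 1004 and 1373 CPM in Normal 1, 2 and 3, and pigment epithelium markers to 299.6, 180.1 and 221.7 CPM. Xist and Y-linked counts gave 2 female libraries and 1 male library in OIR and 1 female and 2 male libraries in normal retina. The labels do not tie the libraries to separate animals, and p-values therefore cover only the spread between these samples, which may be technical. The labels give no batch.

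Transcripts for GABA and glycine transmission were lower in OIR retina across nearly every role. Of the 32 members with enough counts to be tested, 21 were lower and 0 higher at an adjusted p under 0.05 in edgeR's quasi-likelihood test, and the count of higher members was also 0 at an unadjusted p under 0.05 and in DESeq2 and limma-voom. Over all 17108 genes tested, 19.8% were called, 8.73% lower and 11.1% higher. Every OIR library lay below every normal library for 23 of the 32 members, against 18.1% of all genes tested, and 0 members had every OIR library above every normal library, against 18.7%. The median log2 fold change, OIR over normal, was −0.44 for the members and 0.01 for all genes tested. Since most members were well expressed, the share was also taken among genes with a mean of at least 10 CPM, where 12.1% of 10796 genes and 18 of 26 members were lower.

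Synthesis and transport did not stand apart from the receptors in these counts. In the first group 7 of 10 genes were lower, with a median log2 fold change of −0.42 and a range of −0.68 to 0.19. Among the receptor subunits 14 of 21 were lower, with a median of −0.45 and a wider range of −1.27 to 0.08. The anchoring gene Gphn did not pass. Without Normal 3 the count of lower members was 13, made up of 5 synthesis and transport genes and 8 receptor subunits, and without OIR 1 it was 14, with 4 and 10. Without OIR 3, the library with the most lens transcripts, it was 18, with 7 and 11. Over all genes, 1493 were lower with all libraries, 769 without Normal 3, 761 without OIR 1 and 1255 without OIR 3. In whole tissue, fewer cells of a type and less RNA per cell cannot be told apart.

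**Figure D1:**
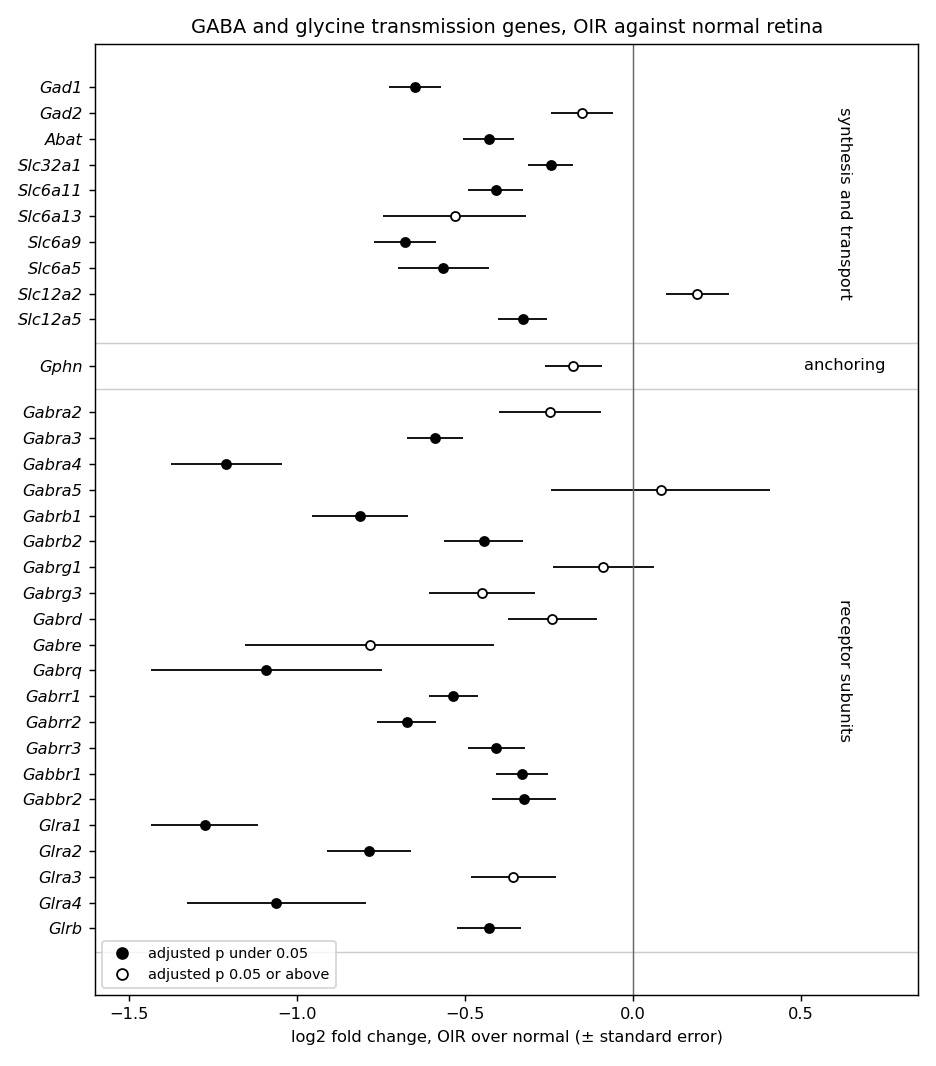
Log2 fold changes, OIR over normal, of the 32 tested members by role, with standard errors from edgeR (n = 3 libraries per group). Filled points had an adjusted p under 0.05, all 21 of them lie left of 0, and the largest falls are those of Glra1, Gabra4, Gabrq and Glra4.

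The DNA upstream of the genes was compared through the 250 bases before the RefSeq gene start (build GRCm38.p6), which was at hand for 29 of the 33 members. Many of these windows hold annotated exon bases, over all 250 bases for Glra4, Gphn and Slc6a9. The Gad1 window lies inside the deposited gene model. Exon bases were not counted in the windows of all genes. The letters ACGTG or GCGTG, the core of the element that hypoxia-inducible factors bind, on either strand, were found in 13 of the 29 windows (44.8%), against 43.9% of the windows of 17492 protein-coding genes. The AP-1 motif TGACTCA on either strand was found in 2 of the 29 (6.9%), against 4% of all. The median number of CpG dinucleotides per window was 11 for the members and 10 for all protein-coding genes, and the median share of G and C was 60.4% for the members and 55.2% for all. Below are windows of 4 genes that fell in OIR and whose windows hold no annotated exon, shown because an uptake gene and 3 receptor subunit genes that fell together differ widely in base composition. They are given 5′ to 3′ on the strand of the gene, and capitals mark ACGTG or GCGTG on either strand. The Slc6a11 window (chr6:114130991-114131240, plus strand) has 25 CpG and 71.2% G and C, the Gabra3 window (chrX:72656920-72657169, minus strand) 0 CpG and 42.4%, the Glra2 window (chrX:165327394-165327643, minus strand) 8 CpG and 50.4%, and the Glrb window (chr3:80913661-80913910, minus strand) 20 CpG and 62.4%. A match is a run of letters and was not tested as a site.
Slc6a11: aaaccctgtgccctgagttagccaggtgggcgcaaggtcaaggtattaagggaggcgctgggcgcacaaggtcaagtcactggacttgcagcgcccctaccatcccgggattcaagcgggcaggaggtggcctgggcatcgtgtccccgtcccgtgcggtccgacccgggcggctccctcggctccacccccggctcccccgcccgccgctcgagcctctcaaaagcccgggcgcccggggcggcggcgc
Gabra3: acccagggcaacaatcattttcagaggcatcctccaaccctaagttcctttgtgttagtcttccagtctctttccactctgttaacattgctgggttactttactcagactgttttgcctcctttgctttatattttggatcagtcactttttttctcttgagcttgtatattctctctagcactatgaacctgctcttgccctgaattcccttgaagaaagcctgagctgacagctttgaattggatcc
Glra2: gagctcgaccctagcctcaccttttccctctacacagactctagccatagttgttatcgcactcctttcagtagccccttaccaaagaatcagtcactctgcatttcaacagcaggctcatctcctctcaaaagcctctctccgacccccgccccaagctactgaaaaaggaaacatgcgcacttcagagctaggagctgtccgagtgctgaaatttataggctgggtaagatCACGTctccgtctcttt
Glrb: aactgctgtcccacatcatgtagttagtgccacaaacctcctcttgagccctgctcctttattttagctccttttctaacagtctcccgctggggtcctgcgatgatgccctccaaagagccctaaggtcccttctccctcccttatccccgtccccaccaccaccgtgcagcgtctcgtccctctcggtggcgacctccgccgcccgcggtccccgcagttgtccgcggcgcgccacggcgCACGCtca

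Transmitter synthesis showed a split between the 2 decarboxylase genes. Gad1 (ENSMUSG00000070880, chromosome 2, 70553072 to 70602014, plus strand, mm10) encodes the decarboxylase that makes most basal GABA in the mouse brain. It had 207, 230.4 and 241 CPM in the OIR libraries, against 344, 340.3 and 379 CPM in the normal libraries. The groups did not overlap, and the level was 36.2% lower, a log2 fold change of −0.65 (standard error of 0.077, edgeR adjusted p of 0.000225). Gad2, the decarboxylase gene tied to nerve terminals, had 70.3, 64.2 and 70.8 CPM in OIR and 67.6, 75.7 and 84.8 CPM in normal retina. These groups overlapped, and its log2 fold change of −0.15 with a standard error of 0.0926 did not pass (edgeR adjusted p of 0.294). Per kilobase of gene model, the Gad1 level was 2.26, 2.76 and 2.62 times the Gad2 level in the OIR libraries, against 3.91, 3.46 and 3.44 times in the normal libraries, so the ratio was lower in every OIR library.

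Breakdown and vesicle loading were lower by less. Abat, the GABA transaminase gene, had 138, 126 and 148 CPM in OIR libraries and 195, 174 and 186 CPM in normal libraries. It fell by 0.43 on the log2 scale with a standard error of 0.0767 (edgeR adjusted p of 0.00297). Slc32a1 encodes the vesicular transporter that loads both transmitters. Its exons share 24.9% of their bases with Gm14205 on the other strand, a gene with 0 counts in all libraries. The Slc32a1 value is uncertain where reads of the shared stretch were not told apart by strand. Slc32a1 had 117, 118 and 121 CPM in OIR libraries and 146, 132 and 143 CPM in normal libraries. The groups did not overlap but lay close, with a log2 fold change of −0.24 and a standard error of 0.0671 (edgeR adjusted p of 0.027), the smallest change among the 21 lower members. Slc32a1 no longer passed without Normal 3 (−0.23, edgeR adjusted p of 0.0956), OIR 1 (−0.24, edgeR adjusted p of 0.106) or OIR 2 (−0.25, edgeR adjusted p of 0.0965), nor with sex as a covariate (−0.22, edgeR adjusted p of 0.0867).

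Of the 4 plasma membrane transporter genes, 3 were lower, both glycine transporter genes and Slc6a11, and Slc6a13 did not pass. Slc6a9 (ENSMUSG00000028542, chromosome 4, 117834506 to 117875198, plus strand, mm10) encodes a glycine transporter, which in retina is known from glycinergic amacrine cells. It had 73.8, 79.8 and 91.3 CPM in OIR libraries and 140.2, 121 and 130.1 CPM in normal libraries, the largest fall in the synthesis and transport group at −0.68 on the log2 scale (standard error of 0.092, edgeR adjusted p of 0.000556). Its exons share 27.8% of their bases with Ccdc24 on the other strand. The strand setting of the counting is not stated, so its value is uncertain where reads of the shared stretch were not told apart. Slc6a5, the second glycine transporter gene, had 20.5, 28.0 and 24.2 CPM in OIR and 32.3, 33.3 and 42.1 CPM in normal libraries, with a log2 fold change of −0.56 (standard error of 0.135, edgeR adjusted p of 0.0142). It no longer passed without Normal 3 (−0.44, edgeR adjusted p of 0.0737) or without OIR 1 (−0.46, edgeR adjusted p of 0.0665).

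Slc6a11, a GABA transporter gene, was the member with the highest per-length level among the uptake genes, at 51.9 ± 5.11 CPM per kilobase in OIR and 68.8 ± 3.79 in normal retina (SD, n = 3 each). In CPM it had 248, 246 and 292 in OIR libraries, against 365, 327 and 351 in normal libraries. The groups did not overlap, with a log2 fold change of −0.41 (standard error of 0.0815, edgeR adjusted p of 0.00549). Slc6a13, a GABA transporter gene best known from the meninges and liver, had 11.8, 8.96 and 7.76 CPM in OIR libraries and 18.2, 11.5 and 11.5 CPM in normal libraries. OIR 1 lay above Normal 2 and Normal 3, and the log2 fold change of −0.53 with a standard error of 0.213 did not pass (edgeR adjusted p of 0.11). Slc6a13 passed only with no filter on low counts (−0.54, edgeR adjusted p of 0.0124) and with the replicate number as a block (−0.52, edgeR adjusted p of 0.0328), of the alternatives run.

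The chloride cotransporters differed from each other. Slc12a5 (ENSMUSG00000017740, chromosome 2, 164960802 to 164999731, plus strand, mm10), which moves chloride out of neurons, was the most abundant member per length, at 115 ± 6.74 CPM per kilobase in OIR and 145 ± 5.66 in normal retina (SD, n = 3 each). It had 804, 902 and 871 CPM in OIR libraries, against 1116, 1033 and 1086 CPM in normal libraries, with a log2 fold change of −0.33 and a standard error of 0.0725 (edgeR adjusted p of 0.00934). Without OIR 1 the change was −0.29 and did not pass (edgeR adjusted p of 0.0537). Slc12a2, which moves chloride into cells, had 87.2, 81.2 and 86.1 CPM in OIR libraries and 64.8, 75.2 and 82.8 CPM in normal libraries. Its log2 fold change of 0.19 with a standard error of 0.0935 did not pass (edgeR adjusted p of 0.185). The per-length ratio of Slc12a5 to Slc12a2 was 8.07, 9.72 and 8.86 in the OIR libraries and 15.1, 12.03 and 11.5 in the normal libraries, which do not overlap. Of 5 such gene pairs computed, 3 did not overlap between the groups. The others overlapped, with 16.5 ± 4.84 in OIR and 15.1 ± 3.19 in normal retina for Slc6a11 over Slc6a13, and 4.77 ± 0.685 in OIR and 5.17 ± 0.875 in normal retina for Slc6a9 over Slc6a5 (SD, n = 3 each).

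**Figure D2:**
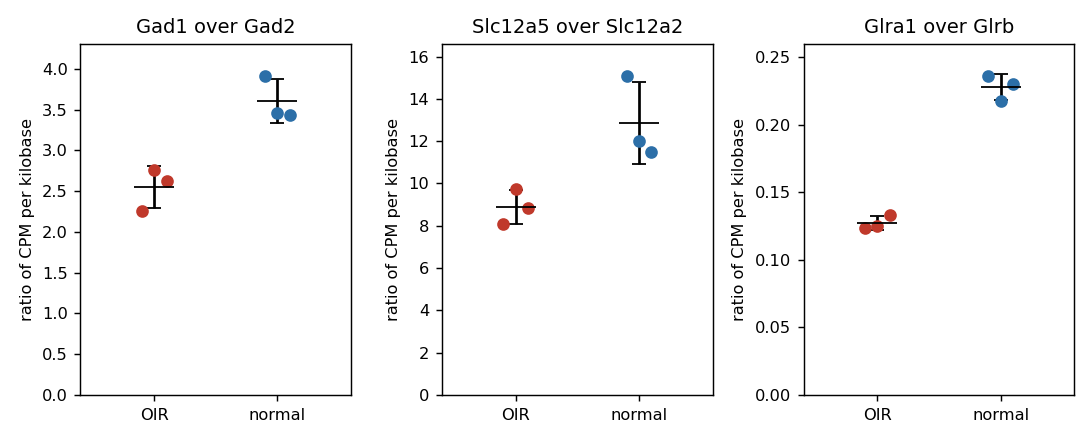
Ratios of per-length levels (CPM per kilobase) in each library for the 3 of 5 gene pairs whose groups did not overlap, chosen after their values were seen, with points for libraries and bars for the mean ± SD (n = 3 per group). The OIR points lie below all normal points for each ratio, with means of 2.55 and 3.60 for Gad1 over Gad2, 8.88 and 12.9 for Slc12a5 over Slc12a2, and 0.127 and 0.228 for Glra1 over Glrb in OIR and normal retina.

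Gphn encodes gephyrin, which anchors glycine receptors and many GABA-A receptors at the synapse. It had 60.8, 67.7 and 72.3 CPM in OIR libraries and 79.0, 71.3 and 76.8 CPM in normal libraries. OIR 3 lay above Normal 2, and the log2 fold change of −0.18 with a standard error of 0.0847 did not pass (edgeR adjusted p of 0.178).

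Among the glycine receptor genes, 4 of 5 subunits were lower, with a median log2 fold change of −0.78. Glra1 (ENSMUSG00000000263, chromosome 11, 55514238 to 55608198, minus strand, mm10) encodes the alpha subunit of the main adult spinal receptor. It had 5.01, 4.89 and 4.99 CPM in OIR libraries, against 12.6, 9.91 and 13.6 CPM in normal libraries. The OIR libraries were close together and far below the normal ones, and the level was 58.6% lower, a log2 fold change of −1.27 (standard error of 0.159, edgeR adjusted p of 0.000313). Of the 1493 genes called lower, 69 had a larger fall. Glra2, the alpha subunit gene with the highest level per kilobase in both groups, had 20.5, 17.3 and 21.9 CPM in OIR libraries and 38.5, 29.5 and 34.7 CPM in normal libraries, with a log2 fold change of −0.78 and a standard error of 0.125 (edgeR adjusted p of 0.00153).

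Glra4 was low, with 119 counts over the OIR libraries and 237 over the normal libraries. It had 2.65, 1.65 and 2.70 CPM in OIR and 5.03, 3.71 and 5.92 CPM in normal libraries, with a log2 fold change of −1.06 and a standard error of 0.266 (edgeR adjusted p of 0.0178). Glra4 did not pass without Normal 3 (−0.90, edgeR adjusted p of 0.0938) or without OIR 2 (−0.87, edgeR adjusted p of 0.0655). Glra3, another alpha subunit gene, had 28.1, 24.0 and 24.2 CPM in OIR and 27.3, 38.3 and 32.0 CPM in normal libraries. OIR 1 lay above Normal 1, and its log2 fold change of −0.35 with a standard error of 0.128 did not pass (edgeR adjusted p of 0.0776), but passed without Normal 1 (−0.47, edgeR adjusted p of 0.0144). Glrb, the beta subunit that binds gephyrin, had 78.3, 75.6 and 72.5 CPM in OIR and 103, 87.9 and 114 CPM in normal libraries, with a log2 fold change of −0.43 and a standard error of 0.0952 (edgeR adjusted p of 0.00967). Without Normal 3 it was −0.34 and did not pass (edgeR adjusted p of 0.0503).

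Within the alpha subunits, Glra1 was the gene whose share did not overlap between the groups. Per kilobase, the 4 alpha subunit genes summed to 12.3 ± 1.17 CPM in OIR and 21.8 ± 2.03 CPM in normal retina (SD, n = 3 each). Glra1 held 16.8% ± 1.47 of that sum in OIR and 22.7% ± 1.64 in normal retina, and its share was lower in every OIR library. Glra2 held 51.3% ± 1.89 in OIR and 49.8% ± 3.14 in normal retina, with overlapping libraries. Shares within the other receptor families also separated for some genes. They were higher in every OIR library for Gabrr1, Gabra2, Gabra5 and Gabrg1, and lower for Gabrr2, Gabra4, Gabrb1 and Gabrq. The remaining shares overlapped. The per-length ratio of Glra1 to Glrb was 0.123, 0.125 and 0.133 in the OIR libraries, against 0.236, 0.217 and 0.230 in the normal libraries.

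All 3 rho subunit genes, whose receptors are best known from bipolar cell terminals, were lower in OIR retina. Gabrr1 (ENSMUSG00000028280, chromosome 4, 33132521 to 33163588, plus strand, mm10) had 74.1, 76.5 and 82.8 CPM in OIR libraries, against 110.4, 111 and 116 CPM in normal libraries, with a log2 fold change of −0.53 and a standard error of 0.0725 (edgeR adjusted p of 0.000558). Gabrr2, which lies 36.7 kb from it on the same strand, had 37.9, 38.3 and 45.9 CPM in OIR and 64.2, 64.2 and 66.3 CPM in normal libraries, with a log2 fold change of −0.67 and a standard error of 0.0884 (edgeR adjusted p of 0.000443). Gabrr3 on chromosome 16 had 31.1, 29.9 and 30.1 CPM in OIR and 37.7, 39.1 and 43.9 CPM in normal libraries, with a log2 fold change of −0.41 and a standard error of 0.0849 (edgeR adjusted p of 0.00708). None of these groups overlapped. Per kilobase the rho genes summed to 60.5 ± 4.01 CPM in OIR and 89.5 ± 2.79 CPM in normal retina, and Gabrr1 held the largest share, at 56.3% ± 0.689 in OIR and 55.0% ± 0.0778 in normal retina (SD, n = 3 each).

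Among the other GABA-A subunit genes of the list, 5 of 11 tested were lower. Gabra4 (ENSMUSG00000029211, chromosome 5, 71569749 to 71658308, minus strand, mm10), an alpha subunit gene, had 6.13, 5.84 and 7.17 CPM in OIR libraries, against 11.9, 17.3 and 15.1 CPM in normal libraries. The level was 56.8% lower, a log2 fold change of −1.21 (standard error of 0.166, edgeR adjusted p of 0.000578). Gabrb1, a beta subunit gene, lies head to head with Gabra4 on the other strand, and the gene models overlap by 196 bases. It had 9.25, 11.2 and 11.0 CPM in OIR and 15.5, 19.6 and 20.1 CPM in normal libraries, with a log2 fold change of −0.81 and a standard error of 0.142 (edgeR adjusted p of 0.00264). The exons of this pair share 46 bases, which is 0.76% of Gabra4 and 0.33% of Gabrb1.

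Gabra2 and Gabrg1, which lie on the same stretch of chromosome 5, did not pass. Gabra2 had 9.02, 9.32 and 9.87 CPM in OIR and 11.4, 12.9 and 9.07 CPM in normal libraries, with a log2 fold change of −0.24 and a standard error of 0.152 (edgeR adjusted p of 0.302). Gabrg1, a gamma subunit gene, had 7.78, 8.31 and 8.46 CPM in OIR and 7.91, 10.2 and 8.04 CPM in normal libraries, with a log2 fold change of −0.09 and a standard error of 0.15 (edgeR adjusted p of 0.733), which was 0.036 without Normal 2. Both pairs of groups overlapped. Neighbouring subunit genes of this cluster thus gave values from −0.09 to −1.21 in the same libraries.

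Gabra3 (ENSMUSG00000031343, chromosome X, 72432681 to 72656848, minus strand, mm10) was the GABA-A gene of the list with the highest per-length level apart from the rho genes, at 9.73 ± 0.62 CPM per kilobase in OIR and 14.6 ± 0.995 in normal retina (SD, n = 3 each). It had 36.4, 37.3 and 41.0 CPM in OIR libraries, against 56.4, 54.1 and 61.7 CPM in normal libraries, with a log2 fold change of −0.59 and a standard error of 0.0833 (edgeR adjusted p of 0.000727). Gabrb2, a beta subunit gene, had 26.1, 26.6 and 25.0 CPM in OIR and 29.4, 35.5 and 40.8 CPM in normal libraries, with a log2 fold change of −0.44 and a standard error of 0.117 (edgeR adjusted p of 0.022). Its normal libraries were spread more widely than its OIR libraries. It did not pass without Normal 3 (−0.33, edgeR adjusted p of 0.0961), OIR 1 (−0.45, edgeR adjusted p of 0.0758), OIR 2 (−0.47, edgeR adjusted p of 0.0546) or OIR 3 (−0.43, edgeR adjusted p of 0.0678).

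Subunits with few counts allowed less. Gabrq, the theta subunit gene near Gabra3 on chromosome X, had 1.12, 1.36 and 0.588 CPM in OIR and 1.92, 2.13 and 2.51 CPM in normal libraries, from 52 counts over the OIR and 106 over the normal libraries. Its log2 fold change of −1.09 with a standard error of 0.345 passed narrowly (edgeR adjusted p of 0.0481). It did not pass without any single library, with values from −1.36 without OIR 2 to −0.83 without OIR 3 and edgeR adjusted p from 0.0536 without OIR 2 to 0.169 without Normal 3, nor in DESeq2 (−1.10, adjusted p of 0.0536). Gabre, the epsilon subunit gene, had 29 and 48 counts over the OIR and normal libraries and a log2 fold change of −0.78 with a standard error of 0.37 (edgeR adjusted p of 0.173). Gabra5 had 71 counts over the OIR and 64 over the normal libraries and a log2 fold change of 0.08 with a standard error of 0.326 (edgeR adjusted p of 0.892), which was −0.13 without Normal 2. Gabra6, an alpha subunit gene typical of cerebellar granule cells, had 1 count in OIR 2 and 0 in the other 5 libraries and was not tested.

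Gabrg3 and Gabrd also did not pass. Gabrg3, a gamma subunit gene, had 15.9, 12.4 and 16.5 CPM in OIR and 23.8, 16.6 and 20.6 CPM in normal libraries. The highest OIR library lay just under the lowest normal library, giving a log2 fold change of −0.45 (standard error of 0.158, edgeR adjusted p of 0.0723). It passed without Normal 2 (−0.58, edgeR adjusted p of 0.021) and in DESeq2 (−0.45, adjusted p of 0.035). Gabrd, the delta subunit gene of extrasynaptic receptors, had 13.0, 15.9 and 16.5 CPM in OIR and 19.3, 18.4 and 15.9 CPM in normal libraries. These overlapped, with a log2 fold change of −0.24 and a standard error of 0.132 (edgeR adjusted p of 0.242).

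**Figure D3:**
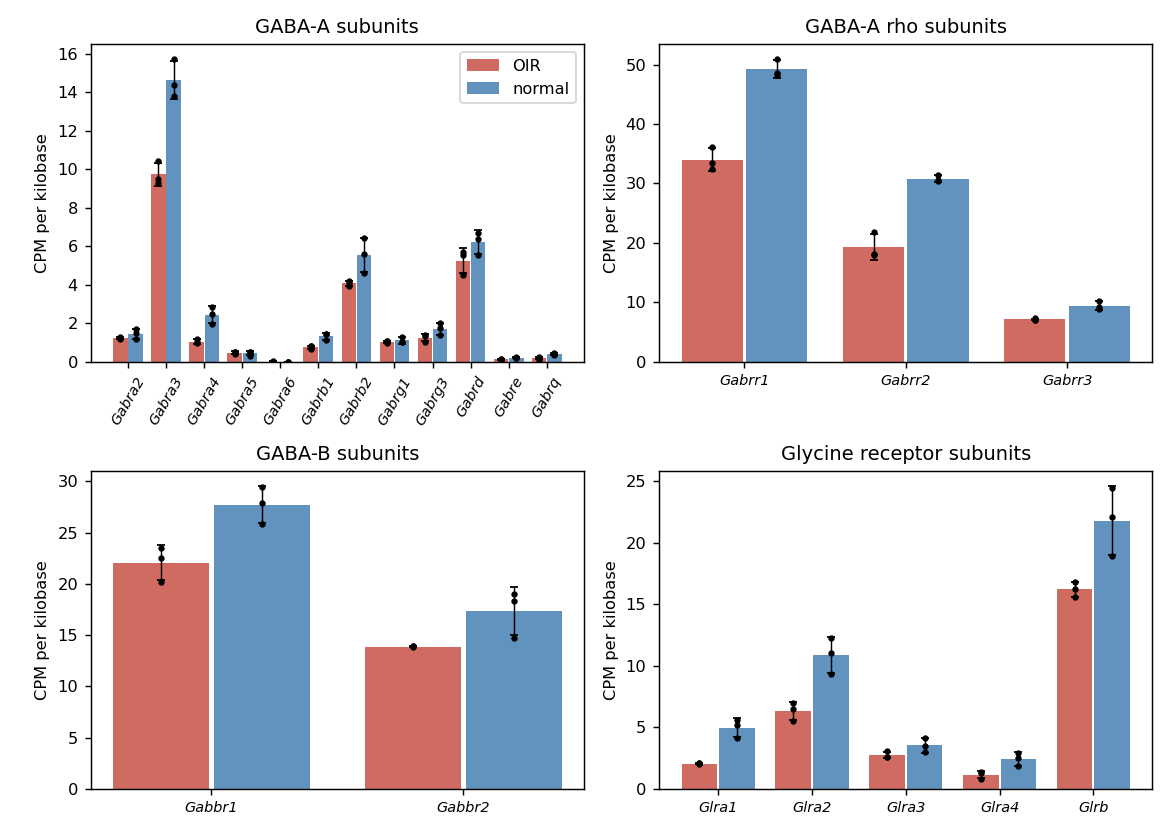
Per-length levels (CPM per kilobase of gene model) of the receptor subunit genes, with bars for the mean, whiskers for the SD and points for the 3 libraries of each group. Gabrr1 at 34.0 and 49.3, Gabbr1 at 22.1 and 27.7, Glrb at 16.2 and 21.8 and Gabra3 at 9.73 and 14.6 CPM per kilobase in OIR and normal retina are the highest of their panels.

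The GABA-B receptor needs both of its subunits, and both genes were lower by a similar amount. Gabbr1, the subunit that binds GABA, had 157, 175 and 182 CPM in OIR libraries and 229, 201 and 217 CPM in normal libraries, with a log2 fold change of −0.33 and a standard error of 0.0765 (edgeR adjusted p of 0.0121). Gabbr2, the subunit that couples to the G protein, had 92.9, 93.1 and 92.3 CPM in OIR and 127, 98.4 and 123 CPM in normal libraries, with a log2 fold change of −0.32 and a standard error of 0.0946 (edgeR adjusted p of 0.0351). The OIR libraries of Gabbr2 were nearly equal, and Normal 2 lay close to them. Gabbr1 did not pass without Normal 3 (−0.33, edgeR adjusted p of 0.0549) or OIR 1 (−0.27, edgeR adjusted p of 0.0634). Gabbr2 did not pass without Normal 1 (−0.25, edgeR adjusted p of 0.079), Normal 3 (−0.28, edgeR adjusted p of 0.145), OIR 1 (−0.33, edgeR adjusted p of 0.0989), OIR 2 (−0.33, edgeR adjusted p of 0.0965) or OIR 3 (−0.33, edgeR adjusted p of 0.0638), nor with library totals as the scaling (−0.28, edgeR adjusted p of 0.0551) or sex as a covariate (−0.26, edgeR adjusted p of 0.102). Gabbr1 held 61.4% ± 1.90 of the summed per-length level in OIR and 61.6% ± 1.85 in normal retina (SD, n = 3 each).

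**Figure D4:**
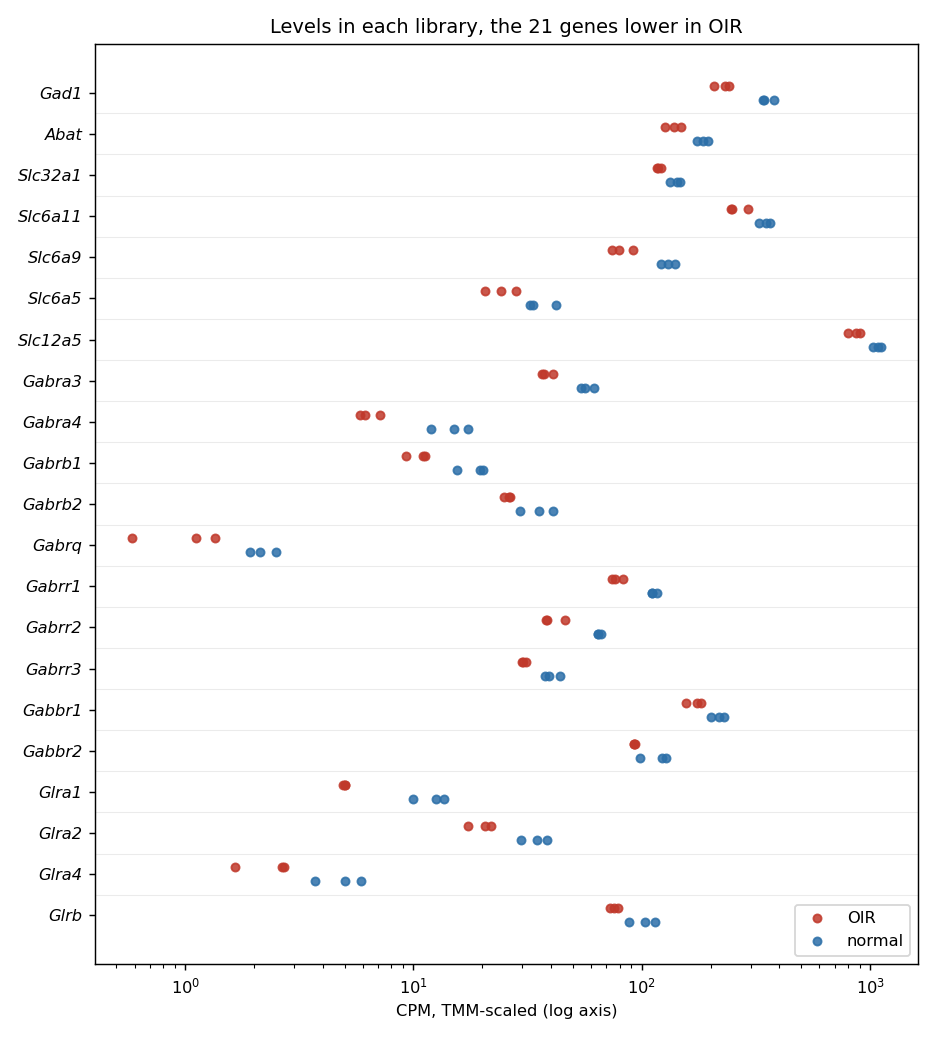
CPM (TMM-scaled, log axis) in each of the 3 OIR and 3 normal libraries for the 21 members that were lower in OIR. In every row the OIR points lie left of the normal points, from Slc12a5 at 804 to 902 CPM in OIR and 1033 to 1116 CPM in normal retina down to Gabrq at 0.588 to 1.36 CPM in OIR and 1.92 to 2.51 CPM in normal retina.

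Other genes of the 2 pathways, taken as a list, lay closer to the background of all genes and went in both directions. The list held 37 genes of glutamine and glycine supply, glycine cleavage, inhibitory synapse assembly, GABA-B accessory proteins and chloride transport. In edgeR's quasi-likelihood test 6 were lower and 4 higher, with a median log2 fold change of −0.08. These are 16.2% lower and 10.8% higher, against 8.73% and 11.1% of all genes tested. Among all genes with a mean of at least 10 CPM the lower share was 12.1%, near that of the list. Every OIR library lay below every normal library for 11 of the 37, against 18.1% of all genes tested. Every OIR library lay above every normal library for 6, against 18.7%. Among the lower genes were the glutamine transporter gene Slc38a1 (−0.47), Aldh5a1, the enzyme after GABA transaminase (−0.45) and Kctd8, a GABA-B accessory subunit gene (−0.38), with edgeR adjusted p from 0.00185 to 0.00942. The higher genes were Slc12a4, a potassium-chloride cotransporter gene found in many cell types (1.23), the mitochondrial serine-glycine enzyme gene Shmt2 (0.58), the glutaminase gene Gls2 (1.22) and the synapse adhesion regulator gene Mdga1 (0.25), with edgeR adjusted p from 2.93e-05 to 0.0376. Slc12a4 averaged 35.2 ± 1.63 CPM in OIR and 14.9 ± 1.68 CPM in normal retina (SD, n = 3 each), so that the cotransporter genes Slc12a5, Slc12a2 and Slc12a4 gave a fall, a value that did not pass and a rise.

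Calls among the cell type markers differed between the lists. Amacrine cell markers were lower in 7 of 13 cases and summed to 1021 to 1089 CPM in OIR libraries and to 1155 to 1389 CPM in normal libraries, with Tfap2b (−0.44) and Slc18a3 (−0.62) among those that fell. Horizontal cell markers were lower in 4 of 7 cases, with Calb1 (−1.06) and Prox1 (−0.43), and higher in 1, and summed to 535 to 580.2 CPM in OIR and 714 to 755 CPM in normal libraries. Bipolar cell markers were lower in 7 of 10 cases, with Grm6 (−0.59) and Scgn (−0.80), and summed to 1571 to 1676 CPM in OIR and 2155 to 2255 CPM in normal libraries. Müller glia markers were lower in 5 of 8 cases, with Abca8a (−0.99), and higher in 1, Crym (1.39), and summed to 3067 to 3802 CPM in OIR and 4390.1 to 4996 CPM in normal libraries.

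Ganglion cell markers gave 0 calls in either direction among 10 genes in edgeR, with 3 lower at an unadjusted p under 0.05, 2 lower in DESeq2 and 0 in limma-voom. They summed to 1067 to 1164 CPM in OIR libraries and to 1628, 1004 and 1373 CPM in Normal 1, 2 and 3. The groups overlap because Normal 2 lay below every OIR library, while Normal 1 and Normal 3 lay above them all. The median log2 fold change was −0.37 for amacrine, −0.39 for horizontal, −0.46 for bipolar, −0.58 for Müller glia, −0.16 for ganglion, −0.19 for rod and −0.24 for cone markers, against −0.44 for the transmission genes. No defining marker of these lists was at 0. Rod markers were lower in 3 of 7 cases and cone markers in 1 of 7.

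Markers of the vessels, of immune cells and of tissue next to the retina also moved with the groups. Mural cell markers were higher in 5 of 5 cases and summed to 603 to 666 CPM in OIR and 242 to 279 CPM in normal libraries. Endothelial markers were higher in 5 of 6 cases, with sums of 429 to 499.9 CPM in OIR and 336 to 388 CPM in normal libraries. Microglia markers were higher in 4 of 6 cases, with sums of 70.3 to 92.1 CPM in OIR and 26.9 to 34.7 CPM in normal libraries. Astrocyte markers were higher in 2 of 5 cases, led by Gfap (3.56), and lower in 1. Their sums were 709.5 to 778 CPM in OIR and 413 to 492 CPM in normal libraries. Most of the rise in this sum came from Gfap, which averaged 262 CPM in OIR and 22.1 CPM in normal libraries. Stromal and meningeal markers were higher in 3 of 6 tested cases, with sums of 56.96 to 77.8 CPM in OIR and 27.8 to 29.7 CPM in normal libraries. Pigment epithelium markers were lower in 4 of 5 cases, with sums of 96.9 to 106.5 CPM in OIR and 180.1 to 299.6 CPM in normal libraries. The part of these cell markers in the falls of the transmission genes was not tested.

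**Figure D5:**
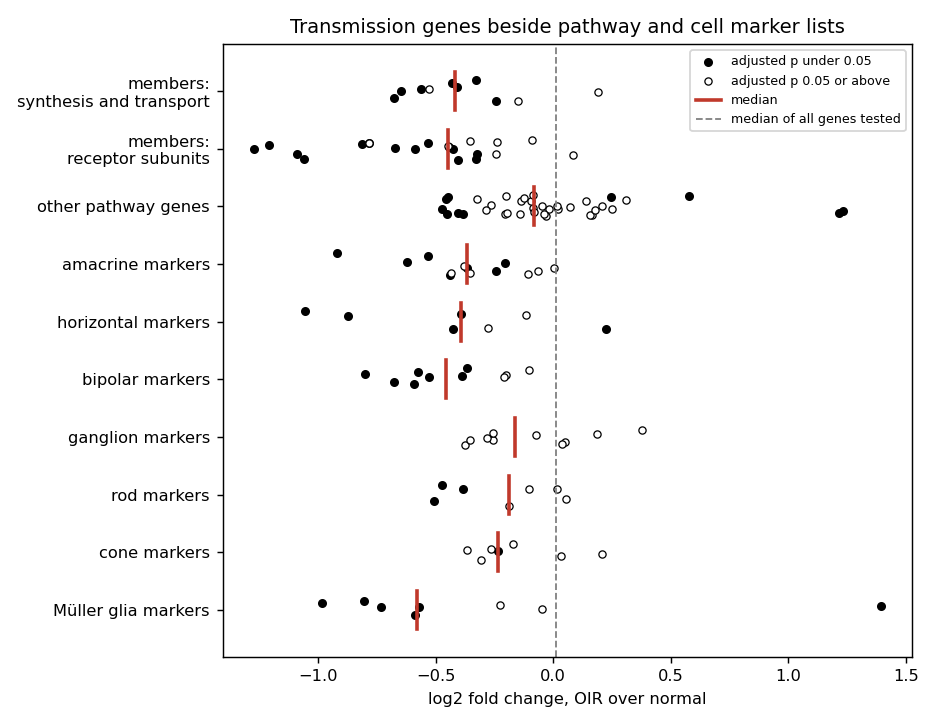
Log2 fold changes, OIR over normal, of the transmission genes beside the other pathway genes and markers of retinal cell types, with points for genes, red bars for list medians and a dashed line for the median of all genes tested. The medians of synthesis and transport (−0.42) and receptor subunits (−0.45) lie near those of bipolar (−0.46), horizontal (−0.39) and amacrine (−0.37) markers, while the other pathway genes have a median of −0.08.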

How the data were processed

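Per the labels' protocols, retinal RNA was extracted with TRIzol and the NEBNext Ultra RNA kit was used for sequencing libraries; in its standard form that kit does not mark strand. The authors deposited raw counts per gene, with the gene length beside them. Per the submitters' processing notes, the build was mm10 and the tools included featureCounts 1.5.0-p3, HISAT2 2.0.5, DESeq2 1.20.0, fastp and CASAVA 1.8. The sources used here give no annotation release, strand setting or read filter. Columns with OIR in their name were matched to the OIR titles by day and number, and the others to the normal titles.

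The deposited counts were tested in R 4.3.3 with the quasi-likelihood test of edgeR 4.0.16 as the main test, after a filterByExpr filter (minimum count 10, total 15) and TMM scaling, with 3 libraries per group, no covariate, and Benjamini-Hochberg adjustment over all 17108 genes kept. Filtered genes carried 0.164% of the counts. A standard error is the size of the log2 fold change over the root of its F statistic. CPM per kilobase uses the deposited gene length. The common biological coefficient of variation was 0.131, and depth limits precision mainly for the members with the fewest counts. Same-group libraries differed beyond counting noise, with chi-square per degree of freedom of 7.20 to 23.1, so all 6 were kept. Upstream windows came from RefSeq, the first start of each gene being used, and exon overlaps from GENCODE vM21, in which 99.8% of the gene IDs were found.

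Alternatives were DESeq2 1.42.0, limma-voom (limma 3.58.1), median-of-ratios factors, library totals, no filter, the replicate number as a block, a stricter filter (1 CPM in 3 libraries), sex as a covariate, each library left out, and a threshold of 0.01. The fits were tested on simulated counts. Members, lists and tests were chosen with earlier results of these data known. All members were named, with up to 4 other pathway genes per direction and up to 2 genes per marker list by smallest adjusted p. One gene that this rule picks is not reported here.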

Additional observations from a re-analysis of the deposited data

How the results depend on the processing

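Of the 32 tested members, 0 were called higher under every alternative run, in edgeR, DESeq2 or limma-voom. The count called lower was 21 and ranged from 13 without Normal 3 to 21 without Normal 2 when 1 library was left out; it was 21 in DESeq2, limma-voom, with median-of-ratios factors, with the stricter filter and with the replicate block, 19 with library totals and with sex as a covariate, 24 with no filter, and 14 at an adjusted p under 0.01. For synthesis and transport the count of 7 ranged from 4 to 7 with 1 library left out, and for receptor subunits the count of 14 ranged from 8 to 14 and was 9 at 0.01. For the other pathway genes, 3 to 6 were higher and 4 to 8 lower with 1 library left out. Over all genes, 761 to 1734 were lower and 1237 to 2097 higher with 1 library left out, and 647 and 1116 at 0.01. The cause was not tested. The log2 fold changes that changed sign were those of Gabra5 (−0.13) and Gabrg1 (0.036) without Normal 2, within ranges of −0.13 to 0.22 and −0.15 to 0.036 over the libraries left out. Among the lower members, Gad1, Abat, Slc6a11, Slc6a9, Gabra3, Gabra4 and Gabrb1 kept their call and direction in all 14 alternative fits. So did Gabrr1, Gabrr2, Gabrr3, Glra1 and Glra2, and no other lower member. Gad2, Slc12a2, Gphn, Gabra2 and Gabrd stayed uncalled with the same sign in all 14 fits. Scaling moved the median of all genes by under 0.1, at most to 0.06. The replicate numbers did not pair the libraries: the deviations of same-numbered libraries correlated at 0.06, −0.16 and 0.07. Gabrq also did not pass with library totals (edgeR adjusted p of 0.0611) or sex as a covariate (edgeR adjusted p of 0.0983), and Glra3 passed with sex as a covariate (edgeR adjusted p of 0.0258) and with no filter (edgeR adjusted p of 0.0206). With the replicate block Slc32a1 (−0.24, edgeR adjusted p of 0.0526) and Gabrq (−1.12, edgeR adjusted p of 0.0793) no longer passed and Slc6a13 and Gabrg3 did. Gabra5 and Gabre, with few counts, had standard errors of 0.326 and 0.37, so a fall the size of the members' median (−0.44) would be little more than 1 standard error.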
